A study of Mus musculus with 6 samples.

Results

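Interferon-stimulated genes are the genes that cells switch on when interferon binds its receptors. A module of 31 such genes, taken by gene symbol, was read among the 24346 genes measured by RNA-seq in mouse renal cortex. The tested mice were C57BL/6 mice on the HF/HC/HS/BA diet containing tofogliflozin, an inhibitor of the renal glucose transporter SGLT2, for 8 weeks (3 libraries). The mice they were set against were C57BL/6 mice on the same HF/HC/HS/BA diet without the drug for 8 weeks (3 libraries). The diet, high in fat and cholesterol with added bile salt, was thus shared by both groups, and the study's title describes the mice as steatohepatitic. The labels give the strain but no other genotype, and neither age nor sex.

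Type I interferons act through Ifnar1 and Ifnar2 and the kinases Jak1 and Tyk2. These activate Stat2, which acts with Irf9 in a complex that binds the interferon-stimulated response element (ISRE). Interferon gamma acts through Ifngr1 and Ifngr2, and many of its target genes carry the gamma-activated site (GAS). Tubular, endothelial and immune cells of the kidney can all respond, so a bulk library adds up the response of many cell types, and fewer cells of a type and less RNA per cell cannot be told apart.

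None of the interferon-stimulated genes passed the test between mice given tofogliflozin and mice on the diet alone. Their levels instead differed among the 3 mice on the diet alone: diet replicate 2 was the highest of the 6 libraries for most of them and diet replicate 3 the lowest. The 3 tofogliflozin libraries lay closer together than the diet libraries. The widest spread was in the interferon-inducible GTPases, such as Iigp1, at 13.5, 11.5 and 9.13 FPKM with tofogliflozin, against 20.8, 73.1 and 3.81 FPKM with the diet alone. FPKM scales fragments to transcript length and to the mapped fragments of the library, so levels can be set side by side between genes. Because the result turns on single libraries, values without diet replicate 2 and without diet replicate 3 are given beside it.

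The spacing of the lowest values placed their depth at about 7590000 to 9810000 fragments, so 1 FPKM of a 2 kb transcript stands for roughly 15.2 to 19.6 of them. The upper quartile of FPKM lay between 10.5 and 10.6 in all 6. Markers of the proximal tubule, the main cell type of the cortex, were all present, with a summed level of 3635 to 3895 FPKM with tofogliflozin and 3891 to 4247 FPKM with the diet alone. Among them the phosphate transporter gene Slc34a1 was at 2138, 2292 and 2128 FPKM with tofogliflozin, against 2566, 2286 and 2645 FPKM with the diet alone. The water channel gene Aqp1 ran from 415 to 416 FPKM with tofogliflozin and from 403 to 421 FPKM with the diet alone. Of the 8 tubule markers none was called, and 4 had a log2 change above 0 and 4 below. An unadjusted limma p under 0.05 was found for 2 of the 8, where 13.1% of all genes passed. These 2 are named for their p after their values were seen. The lactate transporter gene Slc5a12 was higher in every tofogliflozin library, as were 9.63% of all genes tested. It was at 161, 136 and 187 FPKM with tofogliflozin, against 112, 114 and 128 FPKM with the diet alone (limma adjusted p = 0.199). The organic anion transporter gene Slc22a6 had a log2 change of -0.31 ± 0.13 (SE; limma adjusted p = 0.368).

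**Figure D1:**
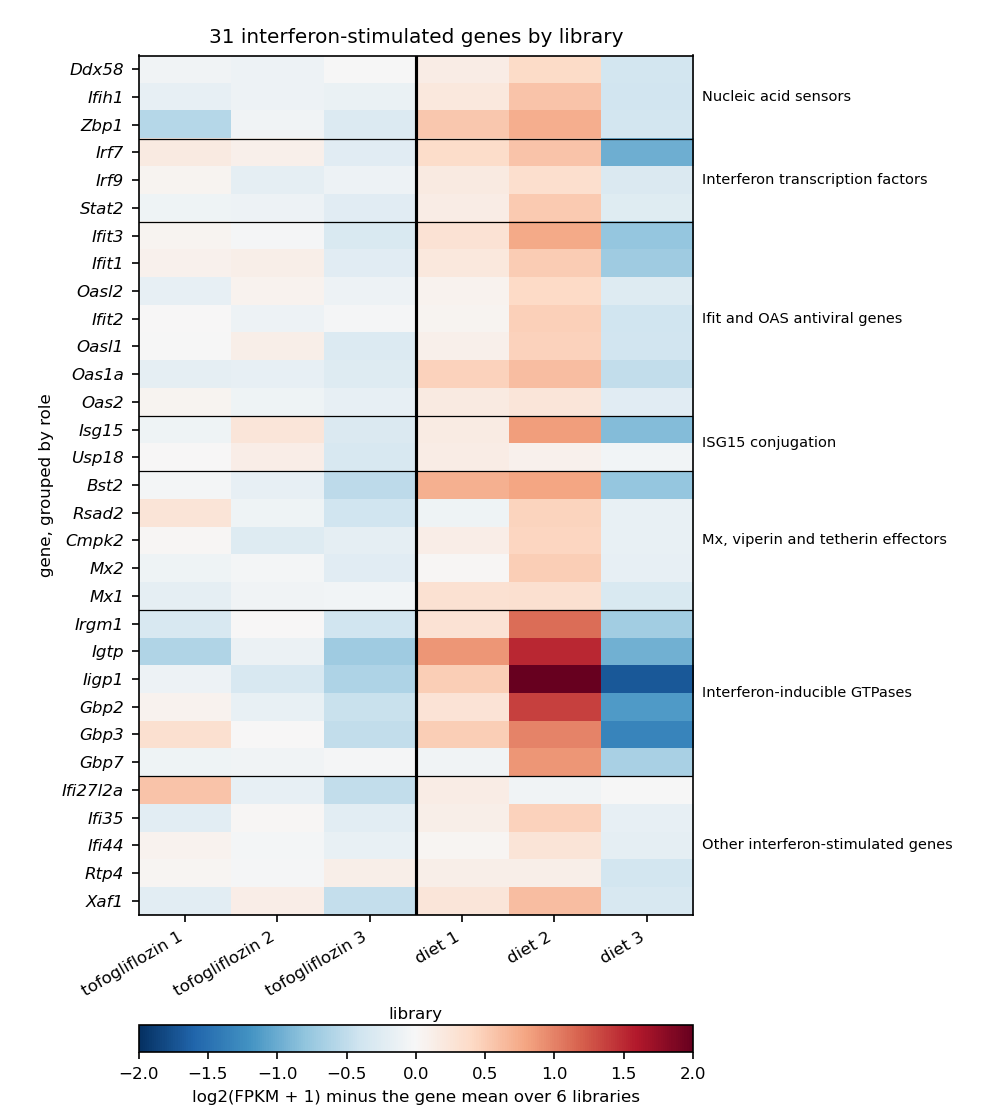
Level of the 31 interferon-stimulated genes (rows, grouped by role) in the 3 tofogliflozin and 3 diet libraries (columns), as log2(FPKM + 1) minus the gene's mean over the 6 libraries, red above and blue below it. Diet replicate 2 is the reddest column and diet replicate 3 the bluest, most of all in the GTPases, where Iigp1 runs from 3.81 to 73.1 FPKM.

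Of the 31 genes, 29 reached 1 FPKM in 3 or more libraries and were tested, and Mx1 and Mx2 did not. None of the 29 was called (limma, Benjamini-Hochberg adjusted p under 0.05 over all 12248 genes tested), where 0.253% of all genes were called in either direction, 0.0572% of them lower and 0.196% higher. The adjusted p-values ran from 0.405 for Zbp1 to 0.997 for Ifit1 (limma). At an unadjusted limma p under 0.05 there were also 0 of 29, where 13.1% of all genes passed. The log2 change, on the log2(FPKM + 1) scale and tofogliflozin minus diet, was below 0 in 27 of the 29, where 50.3% of all genes were. Its median was -0.15 over the 29, against -0.00075 over all genes tested. In none of the 29 did the groups separate, where they did in 18.5% of all genes (8.86% lower with tofogliflozin and 9.63% higher).

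The order of the libraries was shared by most of the genes. Diet replicate 2 was the highest library for 26 of the 29 tested genes, against 18.9% of all genes tested. Diet replicate 3 was the lowest for 22 of the 29, against 15.9% of all genes. In 16 of the 29 all 3 tofogliflozin libraries lay above diet replicate 3 and below diet replicates 1 and 2, an order seen in 2.01% of all genes. These shares describe 6 libraries and carry no test.

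The spread within a group differed between the groups in the same way. The SD of log2(FPKM + 1) among the diet libraries exceeded that among the tofogliflozin libraries in 26 of the 29 genes, against 60.3% of all genes tested. The median SD of the 29 was 0.19 with tofogliflozin and 0.47 with the diet alone, where over all genes it was 0.10 and 0.13. The highest library of a group was a median of 1.33 times the lowest with tofogliflozin (range 1.05 to 2.21) and 2.41 times the lowest with the diet alone (range 1.17 to 19.2). Over all genes tested these medians were 1.17 and 1.21. Rsad2, Usp18 and Ifi27l2a were the 3 genes with the larger SD with tofogliflozin.

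**Figure D2:**
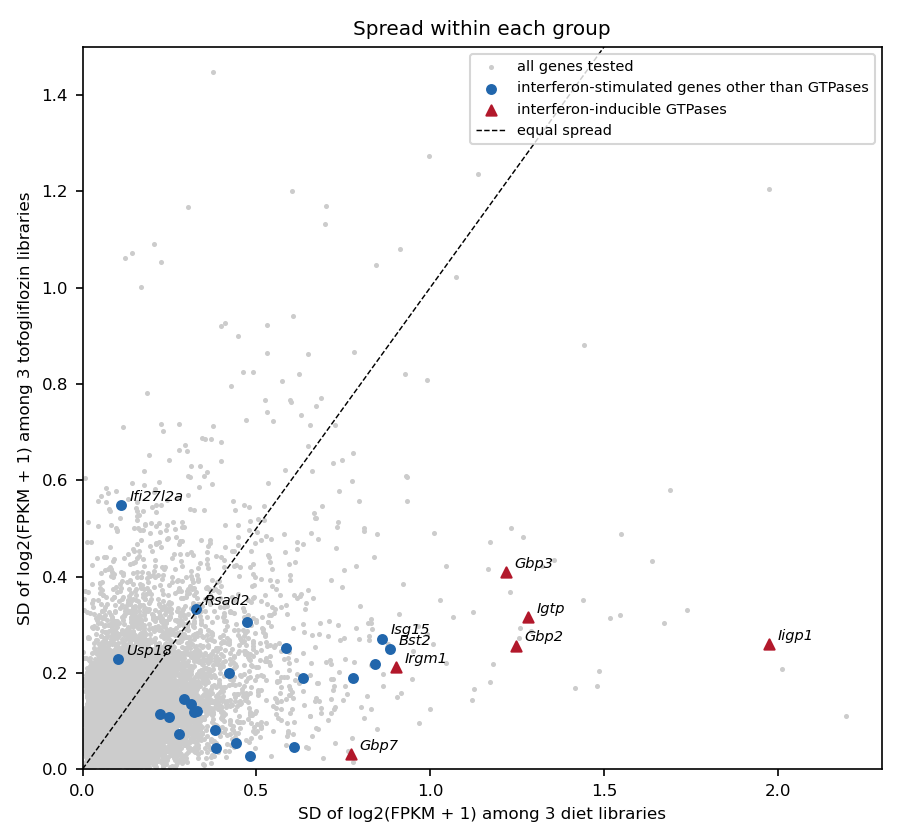
SD of log2(FPKM + 1) among the 3 tofogliflozin libraries (vertical axis) against that among the 3 diet libraries (horizontal axis), 1 point per gene tested, with the line of equal spread; 18 genes lie outside the plotted range. Of the interferon-stimulated genes, 26 of 29 lie below the line, and the GTPases (triangles) other than Gbp7 lie farthest to the right.

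The stretch before the start sites of these genes is shown, which for many of them holds the binding element of the interferon-activated complex. RefSeq gave a promoter window (250 bases before to 50 after a start, GRCm38.p6) for 23 of the 31 genes. The core of the response element was searched as GAAA, any 2 bases and GAAA again on both strands (TTTC, 2 bases and TTTC on the other), and the gamma-activated site as TTCNNNGAA, which reads the same on both strands. Of the 23 genes, 14 held the ISRE core in at least 1 window, against 3.99% of the 27025 genes with a window (3.44% of 32851 windows). The GAS letters were found in 6 of the 23 genes, against 9.55% of all genes (8.30% of windows), and both motifs in 4, against 0.540% of all genes (0.454% of windows). The list was chosen as interferon-stimulated genes, so a share above that of all genes follows from the choice and says nothing about these libraries. A match describes letters in a window and does not show that a factor binds there.

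Isg15 and Igtp are printed with the 250 bases before the start, as a gene of the antiviral core and the GTPase with the largest log2 change. Capitals mark the motif matches. In Isg15 (chr4:156200819-156201068, minus strand, printed 5′ to 3′ along the gene) 3 ISRE matches overlap into 1 run. In Igtp (chr11:58199306-58199555, plus strand) a GAS match lies just before an ISRE match, without overlapping it.
Isg15: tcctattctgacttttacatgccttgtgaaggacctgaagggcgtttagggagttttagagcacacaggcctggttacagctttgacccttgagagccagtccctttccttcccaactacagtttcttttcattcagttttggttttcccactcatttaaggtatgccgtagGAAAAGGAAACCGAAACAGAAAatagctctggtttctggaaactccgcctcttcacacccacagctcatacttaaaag
Igtp: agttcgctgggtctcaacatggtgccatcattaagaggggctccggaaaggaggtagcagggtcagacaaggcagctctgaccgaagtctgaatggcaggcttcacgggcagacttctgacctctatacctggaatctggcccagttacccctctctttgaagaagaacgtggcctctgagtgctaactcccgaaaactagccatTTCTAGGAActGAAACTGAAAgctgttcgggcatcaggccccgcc

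For comparison, 30 bases around 1 ISRE match are given for 6 further genes, each printed 5′ to 3′ along its gene with the match in capitals. The same 10 letters, TTTCAGTTTC, stand in Ifit1, Ifit3, Gbp3 and Stat2. The windows are chr19:34640794-34640823 for Ifit1, chr19:34583397-34583426 for Ifit3, chr3:142559989-142560018 for Gbp3 and chr10:128270266-128270295 for Stat2, all on the plus strand. Those on the minus strand are chr11:48871425-48871454 for Irgm1 and chr8:71537577-71537606 for Bst2, whose promoter also holds a GAS match that overlaps its other ISRE match. The motif is thus shared by genes whose spread among the diet libraries was wide (Gbp3) and narrower (Stat2).
Ifit1: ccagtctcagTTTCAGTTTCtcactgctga
Ifit3: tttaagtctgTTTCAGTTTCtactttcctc
Gbp3: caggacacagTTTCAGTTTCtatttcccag
Stat2: cgcaccctggTTTCAGTTTCctttccctag
Irgm1: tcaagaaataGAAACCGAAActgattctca
Bst2: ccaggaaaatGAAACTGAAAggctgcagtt

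Interferon itself was barely seen. Of 11 interferon genes looked for, 10 were listed at 0 in all 6 libraries (Ifna1, Ifna2, Ifna4, Ifna5, Ifnab, Ifnb1, Ifne, Ifnk, Ifnl2 and Ifnl3). Ifng, which encodes interferon gamma, was at 0.0901, 0 and 0 FPKM with tofogliflozin, against 0.467, 0.465 and 0.214 FPKM with the diet alone. Every tofogliflozin library was thus below every diet library, at values that rest on very few fragments (two-sided exact permutation p = 0.1, the smallest that 3 against 3 allows). With no filter on low values, limma gave Ifng an adjusted p of 0.196.

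The receptor genes did not share the spread: their highest diet library was a median of 1.117 times the lowest, and their highest tofogliflozin library 1.22 times the lowest. Of 6 receptor genes none was called and 1 had an unadjusted limma p under 0.05, where 13.1% of all genes did. The log2 change was below 0 in 5 of the 6, where 50.3% of all genes were, with a median of -0.14. Ifngr1 was at 20.8, 20.3 and 18.4 FPKM with tofogliflozin, against 22.9, 23.2 and 21.6 FPKM with the diet alone, so that the groups did not overlap. Ifngr1 had a log2 change of -0.18 ± 0.08 (SE) and a limma adjusted p of 0.376. Ifngr2, its partner chain, was at 9.41, 10.8 and 8.58 FPKM with tofogliflozin, against 11.2, 11.01 and 11.2 FPKM with the diet alone, again without overlap (limma adjusted p = 0.413). The groups did not overlap in 3 of the 6 receptor genes, where they did not in 18.5% of all genes.

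Among 10 tested genes of JAK-STAT signalling and its inhibitors, none was called (1 at an unadjusted limma p under 0.05, where 13.1% of all genes passed). The Tyk2 kinase gene was at 6.56, 6.68 and 6.78 FPKM with tofogliflozin, against 7.82, 7.80 and 7.46 FPKM with the diet alone (limma adjusted p = 0.361). The groups did not overlap in 2 of the 10, Tyk2 and Jak1, where they did not in 18.5% of all genes. Jak2 and Jak1 had limma adjusted p-values of 0.542 and 0.577. Irf1, a transcription factor of the gamma response that is itself induced by interferon, is named here after its values were seen. It was at 13.3, 15.3 and 10.1 FPKM with tofogliflozin, against 16.7, 39.8 and 9.45 FPKM with the diet alone. Irf1 had the same order of diet libraries as most of the module, with replicate 2 highest and replicate 3 lowest.

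The 31 genes are described by role, beginning with the sensors of foreign nucleic acid. Ddx58 encodes RIG-I and Ifih1 encodes MDA5, which detect double-stranded RNA, and Zbp1 binds Z-form nucleic acid and can start cell death. Ddx58 was at 7.63, 7.44 and 7.97 FPKM with tofogliflozin, against 9.05, 10.8 and 6.02 FPKM with the diet alone. Ifih1 was at 3.44, 3.61 and 3.54 FPKM with tofogliflozin, against 4.74, 6.39 and 2.81 FPKM with the diet alone. In both genes the tofogliflozin libraries sat between diet replicate 3 and the other diet libraries. The log2 changes were -0.12 ± 0.17 for Ddx58 and -0.27 ± 0.21 for Ifih1 (SE; limma adjusted p = 0.820 and 0.646). Zbp1 was at 1.60, 2.67 and 2.198 FPKM with tofogliflozin, against 4.61, 5.37 and 1.99 FPKM with the diet alone. It had the smallest p of the 29 genes, and its log2 change of -0.60 ± 0.28 (SE) had a 95% interval of -1.24 to 0.03 (limma adjusted p = 0.405).

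Of 12 tested genes of nucleic acid sensing, which take in adaptors, kinases and the further sensors Tlr3, Dhx58 and Eif2ak2, none was called. An unadjusted limma p under 0.05 was found for 2 of the 12 (13.1% of all genes), and all 12 had a log2 change below 0 (50.3% of all genes), with a median of -0.14. Ticam1, the adaptor of Toll-like receptor 3, was at 10.998, 11.8 and 10.4 FPKM with tofogliflozin, against 14.2, 13.2 and 13.4 FPKM with the diet alone. The groups of Ticam1 did not overlap (log2 change -0.28 ± 0.08, SE; limma adjusted p = 0.201). Adar, an RNA-editing enzyme with an interferon-induced form, was at 6.29, 6.73 and 6.38 FPKM with tofogliflozin, against 7.89, 8.24 and 7.14 FPKM with the diet alone (limma adjusted p = 0.2999). Traf3, a signalling adaptor, also had groups that did not overlap (limma adjusted p = 0.386). This held for 4 of the 12, where the groups did not overlap in 18.5% of all genes.

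The 3 transcription factors of the module showed its pattern. Irf7, which amplifies the production of type I interferon, was at 19.9, 18.8 and 14.7 FPKM with tofogliflozin, against 22.8, 26.4 and 8.36 FPKM with the diet alone. Its mean was 17.8 ± 2.74 FPKM with tofogliflozin and 19.2 ± 9.54 FPKM with the diet alone (SD, n = 3 each). The log2 change was 0.03, so the means of the linear and log values differ in sign (limma adjusted p = 0.979). Irf9, the DNA-binding partner of Stat2, was at 11.2, 9.38 and 9.88 FPKM with tofogliflozin, against 12.2, 13.7 and 8.63 FPKM with the diet alone. Irf9 overlaps Rnf31 on the same strand in the GRCm38 annotation, so its value is uncertain. Stat2 was at 6.55, 6.45 and 5.81 FPKM with tofogliflozin, against 7.89, 10.4 and 5.75 FPKM with the diet alone (log2 change -0.28 ± 0.17, SE; limma adjusted p = 0.543).

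The Ifit proteins bind viral RNA and block its translation, and the OAS proteins detect double-stranded RNA. All 7 genes of this kind were highest in diet replicate 2 and lowest in diet replicate 3. Ifit3 was at 12.01, 11.4 and 9.15 FPKM with tofogliflozin, against 14.2, 20.1 and 6.35 FPKM with the diet alone. Ifit1 was at 4.43, 4.56 and 3.37 FPKM with tofogliflozin, against 4.91, 6.23 and 2.12 FPKM with the diet alone. In both, the tofogliflozin libraries fell inside the range of the diet libraries (limma adjusted p = 0.866 for Ifit3 and 0.997 for Ifit1). Oasl2, an OAS-like gene, was at 3.34, 4.10 and 3.55 FPKM with tofogliflozin, against 4.07, 5.37 and 3.05 FPKM with the diet alone (limma adjusted p = 0.794). Ifit2, Oasl1, Oas1a and Oas2 lay between 0.830 FPKM for Oas1a in diet replicate 3 and 5.46 FPKM for Ifit2 in diet replicate 2. The Ifit genes form a cluster on chromosome 19 and the OAS genes lie on chromosome 5, and close relatives within such clusters can share reads.

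Isg15 encodes a ubiquitin-like protein that is attached to other proteins, and Usp18 the enzyme that removes it and dampens receptor signalling. Isg15 was at 6.38, 8.34 and 5.45 FPKM with tofogliflozin, against 7.83, 13.1 and 3.30 FPKM with the diet alone. The 4-fold range of the diet libraries (ratio 3.96) took in every tofogliflozin library, and the log2 change was -0.09 ± 0.37 (SE; limma adjusted p = 0.946). Usp18 did not follow Isg15, at 2.89, 3.24 and 2.12 FPKM with tofogliflozin, against 3.29, 3.13 and 2.74 FPKM with the diet alone. Its highest library was diet replicate 1 and its lowest tofogliflozin replicate 3.

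Among the membrane and enzyme effectors, Bst2 was by far the highest. It encodes tetherin, which holds budding virus at the cell surface and also marks plasmacytoid dendritic cells. Bst2 was at 41.8, 38.3 and 29.7 FPKM with tofogliflozin, against 71.3, 74.8 and 24.6 FPKM with the diet alone. The tofogliflozin libraries were lower than diet replicates 1 and 2 and higher than diet replicate 3, and the log2 change was -0.48 ± 0.38 (SE; limma adjusted p = 0.639). Rsad2 encodes viperin, which makes a chain-terminating nucleotide, and was at 12.8, 9.84 and 7.73 FPKM with tofogliflozin, against 9.88, 14.7 and 9.37 FPKM with the diet alone. Its neighbour on chromosome 12, the nucleotide kinase gene Cmpk2, was at 6.43, 5.11 and 5.43 FPKM with tofogliflozin, against 6.99, 8.80 and 5.55 FPKM with the diet alone. Neither was called (limma adjusted p = 0.806 for Rsad2 and 0.502 for Cmpk2). Mx1 and Mx2, the dynamin-like antiviral GTPases, stayed under the filter. Mx1, which is defective in C57BL/6 mice, was at 0.472, 0.581 and 0.603 FPKM with tofogliflozin, against 1.06, 1.08 and 0.345 FPKM with the diet alone. Mx2 was at 0.612, 0.677 and 0.469 FPKM with tofogliflozin, against 0.741, 1.42 and 0.533 FPKM with the diet alone (two-sided exact permutation p = 0.4 for each gene, n = 3 per group).

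**Figure D3:**
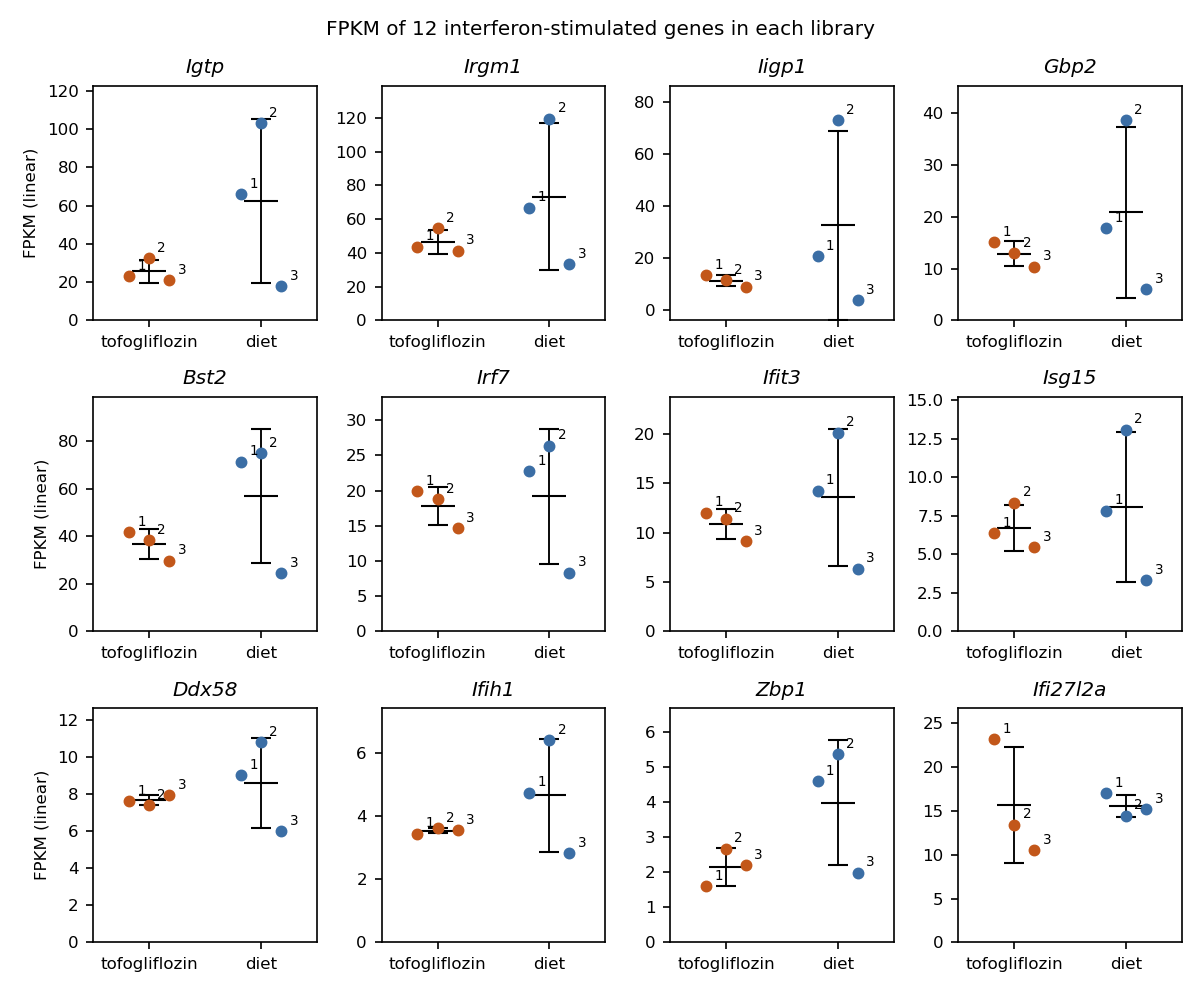
FPKM (linear axes, each gene on its own scale) of 12 interferon-stimulated genes in the tofogliflozin and diet libraries, numbered by replicate, with the mean and SD of each group as a bar. In all genes shown except Ifi27l2a and Zbp1, diet replicate 2 is the highest point and diet replicate 3 the lowest; Zbp1 is lowest in tofogliflozin replicate 1.

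The interferon-inducible GTPases, which attack the membranes around intracellular microbes and are known above all as targets of interferon gamma, had the widest spread of the 7 roles. All 6 were highest in diet replicate 2 and lowest in diet replicate 3. The highest diet library was a median of 6.08 times the lowest over these 6 genes, and the highest tofogliflozin library 1.47 times the lowest. Igtp was at 23.2, 32.6 and 21.2 FPKM with tofogliflozin, against 66.0, 103 and 17.8 FPKM with the diet alone. Irgm1, which controls the other members of its family, was at 43.7, 54.8 and 41.3 FPKM with tofogliflozin, against 66.9, 119 and 33.5 FPKM with the diet alone. Both were several times higher in diet replicate 2 than in diet replicate 3 (5.80 times for Igtp and 3.56 times for Irgm1). The largest ratio was that of Iigp1, whose values are given above, at 19.2 times.

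With all libraries, the log2 change was -0.95 ± 0.54 for Igtp, -0.47 ± 0.38 for Irgm1 and -0.69 ± 0.81 for Iigp1 (SE; limma adjusted p = 0.505, 0.648 and 0.770). The 95% interval for Igtp ran from -2.201 to 0.29 and that for Iigp1 from -2.57 to 1.18, so both took in 0. Gbp2, a guanylate-binding protein gene shown because its values were seen to spread widely, was at 15.2, 13.0 and 10.3 FPKM with tofogliflozin, against 17.7, 38.6 and 6.07 FPKM with the diet alone. Gbp3 and Gbp7 ranged from 4.35 to 8.39 and from 4.98 to 5.24 FPKM with tofogliflozin, against 2.01 to 13.96 and 3.05 to 10.7 FPKM with the diet alone. In the GRCm38 annotation Igtp spans 58199556 to 58207591 on chromosome 11 (plus strand) and overlaps Irgm2 on the same strand. Iigp1 spans 60376027 to 60392634 on chromosome 18, and Gbp7, Gbp3 and Gbp2 stand in a row on chromosome 3 between 142530342 and 142638008. Values of Igtp and of the Gbp genes are uncertain as far as these overlapping or similar genes share reads.

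The last 5 genes were grouped as other interferon-stimulated genes, and some did not follow the module. Ifi27l2a, a small mitochondrial protein gene, was at 23.2, 13.4 and 10.5 FPKM with tofogliflozin, against 17.0, 14.5 and 15.2 FPKM with the diet alone. It was thus the gene with the widest tofogliflozin spread, the highest library being tofogliflozin replicate 1, and its log2 change was -0.06 ± 0.24 (SE; limma adjusted p = 0.946). Ifi35 was at 11.03, 13.2 and 11.1 FPKM with tofogliflozin, against 14.1, 18.2 and 11.4 FPKM with the diet alone (limma adjusted p = 0.509). Ifi44 was at 5.52, 4.998 and 4.58 FPKM with tofogliflozin, against 5.33, 6.43 and 4.46 FPKM with the diet alone (limma adjusted p = 0.843). Xaf1, a gene linked to cell death, ranged from 1.61 to 2.98 FPKM with tofogliflozin and from 1.89 to 4.54 FPKM with the diet alone. Rtp4, a receptor-transporting protein gene, ranged from 3.54 to 4.02 FPKM with tofogliflozin and from 2.59 to 4.02 FPKM with the diet alone. The groups overlapped in all 5.

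The comparison changed with the diet library left out. Diet replicates 2 and 3 were picked for this after their values in these genes were seen. Diet replicate 3 was the lowest library for 22 of the 29, so leaving it out raises the diet mean and narrows the diet spread. Lower changes and smaller p-values thus follow in part from that choice, here and in the lists below. The share of all genes is no like comparison, as diet replicate 3 was lowest in 15.9% of them. Without diet replicate 3, 29 of the 29 log2 changes were below 0 (50.1% of all genes), with a median of -0.45, against -0.00059 over all genes tested. Igtp and Bst2 then passed, both lower with tofogliflozin, where 0.229% of all genes were called lower and 0.237% higher. Igtp had a log2 change of -1.67 ± 0.23 (SE) and a limma adjusted p of 0.0415, and Bst2 one of -0.99 ± 0.14 (SE) and 0.0427. At an unadjusted limma p under 0.05 there were 19 of the 29, all lower, where 6.66% of all genes passed in that direction. Zbp1 and Oas1a came next (limma adjusted p = 0.0771 and 0.0791).

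Without diet replicate 2, 14 of the 29 log2 changes were below 0 (50.8% of all genes) and 15 above, with a median of 0.04. None was called, where 0.204% of all genes were called lower and 0.335% higher (0 at an unadjusted limma p under 0.05, where 16.1% of all genes passed). The log2 change of Isg15 was then 0.31, that of Irf7 0.32 and that of Iigp1 0.26. Igtp, Zbp1 and Bst2 were still below 0, at -0.44, -0.39 and -0.21. In the fits without a diet library the group has 2 mice, and no label marks either library as faulty, so neither fit replaces the one with all 6.

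**Figure D4:**
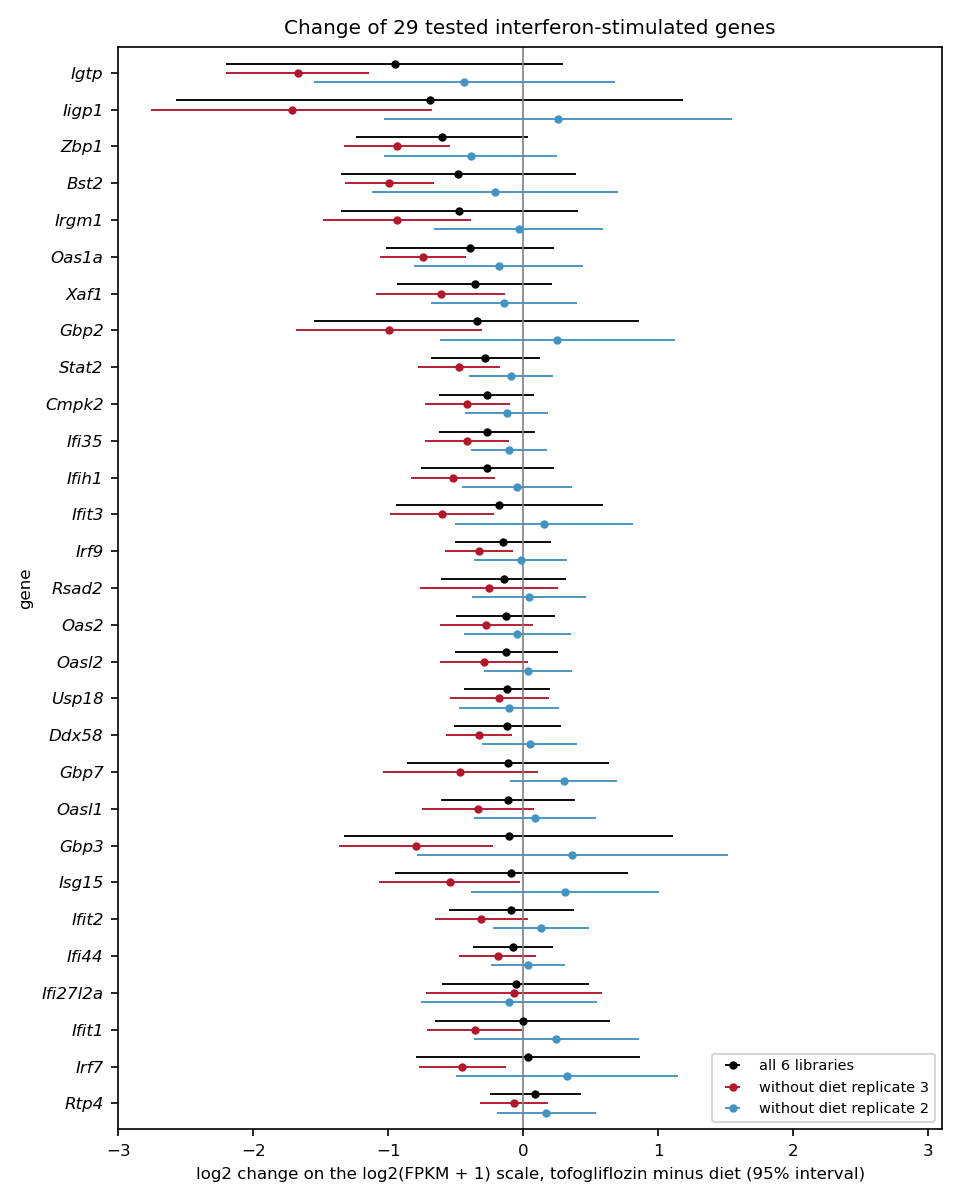
Log2 change of the 29 tested interferon-stimulated genes (tofogliflozin minus diet, on the log2(FPKM + 1) scale) with its 95% interval, with all 6 libraries (black), without diet replicate 3 (red) and without diet replicate 2 (blue). The median is -0.15 with all libraries, -0.45 without diet replicate 3 and 0.04 without diet replicate 2.

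A second list held 33 interferon-stimulated genes outside the module. Of the 31 tested, 27 had a log2 change below 0 (50.3% of all genes), with a median of -0.41. None was called, and 1 had an unadjusted limma p under 0.05 (13.1% of all genes). Diet replicate 2 was the highest library for 27 of the 31 and diet replicate 3 the lowest for 22. Dtx3l, a ubiquitin ligase gene, had the smallest p and groups that did not overlap, at 3.11, 3.11 and 2.80 FPKM with tofogliflozin, against 5.39, 7.39 and 3.31 FPKM with the diet alone. Its log2 change was -0.62 ± 0.22 (SE; limma adjusted p = 0.279). The groups did not overlap in 2 of the 31, where they did not in 18.5% of all genes. Tap2, of the peptide transporter, and Samd9l followed (limma adjusted p = 0.386 and 0.423). Without diet replicate 3, Irgm2, Lgals3bp and the immunoproteasome subunit Psmb8 were called lower (limma adjusted p = 0.0427, 0.0319 and 0.0319), where 0.229% of all genes were, and the median was -0.76. Without diet replicate 2 none was called and the median was -0.05.

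Antigen presentation genes, many of them induced by interferon gamma, mostly stood higher, and their highest diet library was a median of 5.28 times the lowest. This median was 4.22 for the class I genes and 7.09 for the class II genes, against 6.08 for the GTPases of the module. All 9 tested were highest in diet replicate 2 and lowest in diet replicate 3, with a median log2 change of -0.62. None was called (0 at an unadjusted limma p under 0.05, where 13.1% of all genes passed). H2-D1, a class I heavy chain gene, was at 321, 366 and 282 FPKM with tofogliflozin, against 667, 779 and 232 FPKM with the diet alone (limma adjusted p = 0.557). Ciita, the activator of class II genes, was at 2.37, 1.98 and 2.04 FPKM with tofogliflozin, against 4.68, 9.35 and 1.71 FPKM with the diet alone (limma adjusted p = 0.453). H2-K1, the other class I heavy chain gene, had a limma adjusted p of 0.574. Without diet replicate 3, 4 of the 9 were called lower by limma, namely H2-D1, H2-K1, B2m and H2-Ab1, where 0.229% of all genes were, and the median log2 change was -1.36. Without diet replicate 2 none of the 9 was called, and the median log2 change was -0.18. At an unadjusted limma p under 0.05 there were then 0 of the 9, where 16.1% of all genes passed.

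Markers of several immune cell types also varied between the libraries, in part in another order than the module, and their part in the result was not tested. Macrophage and monocyte markers summed to 114 to 167 FPKM with tofogliflozin and 133 to 347 FPKM with the diet alone, all 12 being above 0 in every library. Of the 10 tested, 9 were highest in diet replicate 2, while 6 were lowest in tofogliflozin replicate 3 and 1 in diet replicate 3. All tofogliflozin libraries lay below diet replicates 1 and 2 in 7 of the 10 macrophage markers, against 20 of the 29 interferon-stimulated genes and 14.7% of all genes. None of the 10 was called (2 at an unadjusted limma p under 0.05, where 13.1% of all genes passed). The log2 change was below 0 in 9 of the 10 (50.3% of all genes), with a median of -0.43, against -0.15 for the module. Without diet replicate 3 the median of the macrophage markers was -0.71, and without diet replicate 2 it was -0.12. C1qb, a complement gene of macrophages, was at 35.1, 37.1 and 25.5 FPKM with tofogliflozin, against 40.8, 68.9 and 26.3 FPKM with the diet alone, and C1qa had a limma adjusted p of 0.603. The pan-leukocyte gene Ptprc was at 3.74, 3.70 and 3.20 FPKM with tofogliflozin, against 3.59, 6.95 and 3.08 FPKM with the diet alone. C1qb and Ptprc were both highest in diet replicate 2.

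T and NK cell markers, of which 3 of 11 passed the filter, summed to 9.51 to 19.3 FPKM with tofogliflozin and 8.13 to 26.3 FPKM with the diet alone, Cd3d being listed at 0 in 1 library. Nkg7, of cytotoxic lymphocytes, was at 1.78, 2.65 and 1.36 FPKM with tofogliflozin, against 4.41, 4.59 and 0.528 FPKM with the diet alone. The chemokine gene Ccl5 was at 5.78, 10.9 and 5.38 FPKM with tofogliflozin, against 14.96, 9.59 and 4.25 FPKM with the diet alone. In both genes diet replicate 3 was the lowest library, while the other tested marker was lowest in tofogliflozin replicate 3. Dendritic cell markers other than Bst2 summed to 5.53 to 5.80 FPKM with tofogliflozin and 3.82 to 11.1 FPKM with the diet alone. Of the markers of plasmacytoid dendritic cells, Siglech and Ccr9 were listed at 0 in diet replicate 1 and stayed under the filter. B and plasma cell markers, of which 2 of 6 passed the filter, summed to 3.29 to 5.12 FPKM with tofogliflozin and 4.82 to 6.55 FPKM with the diet alone, the highest sum being that of diet replicate 3. Endothelial markers, all 6 tested, summed to 149 to 181 FPKM with tofogliflozin and 160 to 169 FPKM with the diet alone. None of the 6 was called (0 at an unadjusted limma p under 0.05, where 13.1% of all genes passed). The highest diet library was a median of 1.119 times the lowest for the endothelial markers and 1.22 times for the tubular ones.

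**Figure D5:**
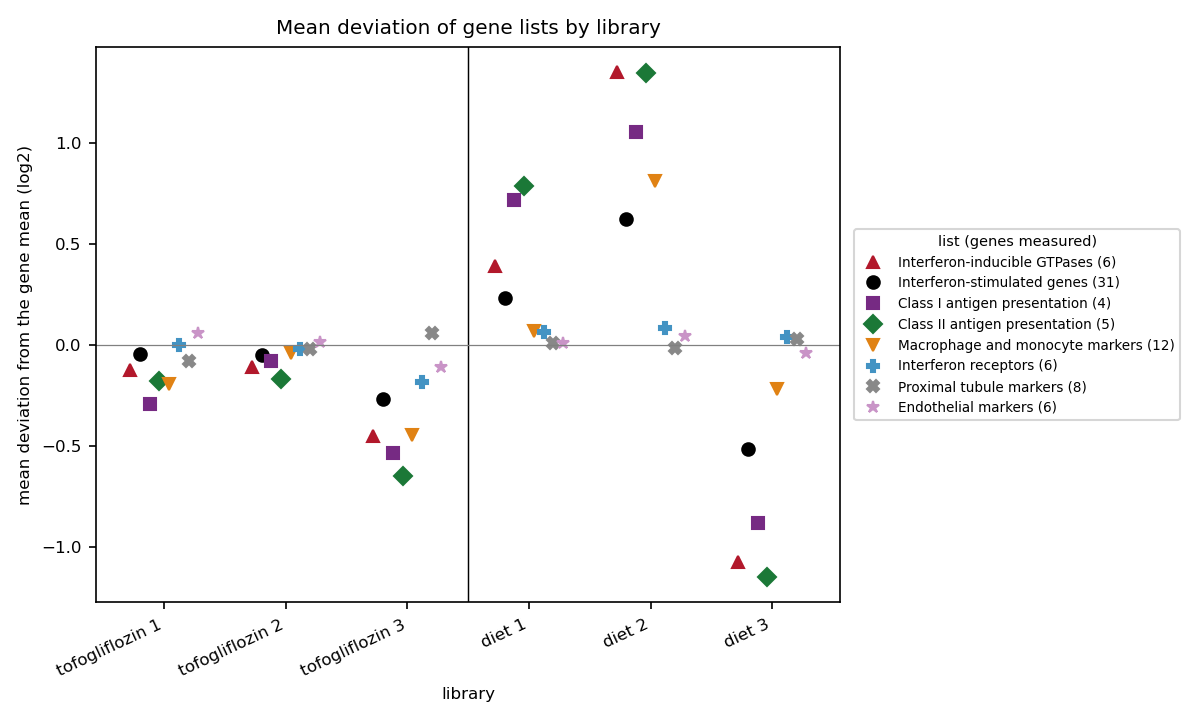
Mean deviation of log2(FPKM + 1) from each gene's mean over the 6 libraries, averaged over the genes of a list, for 8 lists (symbols) in the 3 tofogliflozin and 3 diet libraries. The interferon-inducible GTPases stand at -0.12, -0.10 and -0.45 in the tofogliflozin libraries and at 0.39, 1.35 and -1.07 in the diet libraries, while the proximal tubule markers stay between -0.08 and 0.06.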

How the data were processed

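Renal cortex RNA of 6 mice was sequenced, 3 per group. Per the labels' protocols, the mRNA libraries kept strand. The authors deposited FPKM per gene symbol, 1 table per library. The build was mm10 and the software Cuffdiff 2.2.1, TopHat2 2.1.1, SAMtools 0.1.18 and Bowtie2 2.2.8, per the submitters' processing notes. What each was used for, the annotation and the strand setting were not found in the labels. The labels do not say whether scaling between libraries was applied.

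The 12248 genes that reached 1 FPKM in 3 or more libraries were put on the log2(FPKM + 1) scale, which understates changes of low genes. They were tested two-sided with limma 3.58.1 (trended empirical Bayes; R 4.3.3), with Benjamini-Hochberg adjustment over all of them and a threshold of 0.05. The fit was tested on simulated data. Leaving out a library kept the same genes. Depth was estimated from the steps between the lowest values and the lengths of 253 single-transcript genes; there are no counts, so no count test was run. Coordinates are from GENCODE M21 (GRCm38), which holds all 31 genes. Motifs were searched in RefSeq windows. Python 3.11.15 and matplotlib 3.10.9 served for the other steps.

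The members and lists were chosen with earlier results of these data known, so no test was made over a list. Values are given in every library for up to 3 members per role of highest mean FPKM and for members called with any library left out; for other lists, up to 3 genes of smallest p or, for cell types, up to 2 of highest level. Other genes with values in every library (Mx1, Mx2, Gbp2, Ifng, Irf1, Slc5a12 and Ptprc) were added after their values were seen. The series' design gives 3 mice per group, and each library was taken as 1 mouse. The limma p-values set the difference between groups against the spread between libraries of a group, which the fit moderates across genes. The fit pools that spread over both groups, as if it were equal in them. For the 29 genes its median SD was 0.19 with tofogliflozin and 0.47 with the diet alone, so it rests mainly on the diet libraries. The alternatives were another pseudocount (0.1), no filter, a filter of 5 FPKM, quantile normalization, upper-quartile scaling, array weights, the replicate number as a block and leaving out each library. One gene of the signalling list is not reported here.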

Additional observations from a re-analysis of the deposited data

How the results depend on the processing

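With all 6 libraries, 0 of the tested interferon-stimulated genes were called under any setting (pseudocount, filters, scaling, weights, replicate block). The number called among all genes was 31, and 1 with no filter, 20 with a filter of 5 FPKM and 123 with array weights. It was 21 with pseudocount 0.1, 28 with quantile normalization and 32 with upper-quartile scaling. The cause was not tested. With a library left out it ran from 2 to 66 (4, 18 and 2 without tofogliflozin replicates 1, 2 and 3, and 9, 66 and 57 without diet replicates 1, 2 and 3), and the number of interferon-stimulated genes from 0 to 2, the 2 being Igtp and Bst2 without diet replicate 3. The median log2 change of the module ran from -0.451 without diet replicate 3 to 0.035 without diet replicate 2. The log2 change of Ifit1 was above 0 with pseudocount 0.1 (0.018) and with array weights (0.038). Single genes changed sign with a library left out, none of them called with all 6. Ranges are given for those among the up to 3 members per role of highest mean FPKM. They were -0.361 to 0.245 for Ifit1, -0.605 to 0.155 for Ifit3, -0.547 to 0.308 for Isg15, -0.451 to 0.324 for Irf7, -1.716 to 0.256 for Iigp1, -0.329 to 0.047 for Ddx58, -0.291 to 0.037 for Oasl2, -0.315 to 0.042 for Rsad2, -0.216 to 0.005 for Usp18, -0.188 to 0.035 for Ifi44 and -0.359 to 0.177 for Ifi27l2a. Of the other members, Gbp2, Gbp3, Gbp7, Ifit2 and Oasl1 also changed sign, to above 0 without diet replicate 2. Rtp4 changed to below 0 without diet replicate 3. With the replicate number as a replicate block, 26 genes in all and 0 interferon-stimulated genes were called. The same-numbered libraries of the groups did not deviate together (correlations -0.0549, -0.0623 and 0.0514), so the numbers were not taken as pairs. With 3 libraries per group every comparison is imprecise, and for genes around 1 FPKM the few fragments add to this.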
